A study of Homo sapiens with 6 samples.

Results

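The genes that build cholesterol and long-chain fatty acids were followed through a microRNA overexpression study in osteosarcoma cells. The set held 32 named genes, and its members were all the probe sets of the array that the annotation tied to 1 of those symbols alone. That gave 29 genes on 68 probe sets, out of 19775 genes and 54675 probe sets in the whole table. Of these, 28 passed a level filter (a mean log2 value of at least 5.11, the median of all probe sets) and were among the 12948 genes tested. TM7SF2, a sterol reductase, lay below the filter at 4.49 to 4.99. CYP51A1, the lanosterol demethylase, and FADS1, a fatty acid desaturase, shared their probe sets with other symbols, and FDFT1, squalene synthase, was not analysed here.

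Both lines used, KHOS and U-2OS, are established human osteosarcoma lines, and KHOS carries Kirsten murine sarcoma virus. In each line 1 array held control cells, 1 held cells given the pEP-miR-Null vector and 1 held cells given the pEP-miR-1 vector, 6 arrays in all, with a transfection of 48 hours in Lipofectamine LTX and Plus Reagent. Every array measured RNA pooled from 3 flasks, so no spread between cultures can be seen, and p-values measure only the spread between pooled arrays. The labels do not say whether control cells received the reagent, and the vector and its delivery therefore cannot be told apart. The study set miR-1 against its controls to find the transcripts that respond to this microRNA of heart and skeletal muscle.

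Cells make cholesterol from acetyl-CoA through the mevalonate pathway, squalene and a chain of sterol intermediates, and make fatty acids from the same acetyl-CoA through malonyl-CoA. Transcription of both routes is driven by the sterol regulatory element binding proteins (SREBPs), which stay in the endoplasmic reticulum bound to SCAP and INSIG while sterols are plentiful and are cut free to enter the nucleus when sterols run low. Dividing tumour cells commonly use both routes to make membrane.

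The microRNA and 4 promoters are printed because the results turn on them: the microRNA is the agent of the study, SCD5 passed in both lines, SCD passed in U-2OS, INSIG1 lay on opposite sides of control in the 2 lines, and SREBF2 held the only sterol element found. Sequences are those of RefSeq on GRCh38.p14. The mature microRNA has 22 bases and comes from chr18:21829015-21829036 (minus strand) and chr20:62554351-62554372 (plus strand). Capitals mark its seed, bases 2 to 8.
hsa-miR-1-3p: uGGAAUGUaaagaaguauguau
Each promoter window runs 5′ to 3′ on the gene's own strand, from 250 bases before the start of transcription to 50 after it. Capitals mark the sterol regulatory element core, TCACNCCAC, and the CCAAT box that binds NF-Y, on either strand, so that a box on the other strand reads ATTGG.
SCD5, chr4:82798747-82799046, minus strand: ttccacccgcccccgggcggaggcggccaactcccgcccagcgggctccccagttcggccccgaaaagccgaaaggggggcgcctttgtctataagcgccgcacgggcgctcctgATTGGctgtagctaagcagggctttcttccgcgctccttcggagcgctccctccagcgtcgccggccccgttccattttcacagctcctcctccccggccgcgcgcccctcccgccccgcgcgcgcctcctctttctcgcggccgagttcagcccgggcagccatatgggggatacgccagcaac
SCD, chr10:100346983-100347282, plus strand: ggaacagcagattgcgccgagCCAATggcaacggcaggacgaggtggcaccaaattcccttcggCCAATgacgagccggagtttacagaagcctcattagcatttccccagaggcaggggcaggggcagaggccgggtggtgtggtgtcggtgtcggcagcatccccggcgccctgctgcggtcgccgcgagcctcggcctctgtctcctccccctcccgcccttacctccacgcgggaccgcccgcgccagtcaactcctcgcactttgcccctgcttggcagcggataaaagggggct
INSIG1, chr7:155297628-155297927, plus strand: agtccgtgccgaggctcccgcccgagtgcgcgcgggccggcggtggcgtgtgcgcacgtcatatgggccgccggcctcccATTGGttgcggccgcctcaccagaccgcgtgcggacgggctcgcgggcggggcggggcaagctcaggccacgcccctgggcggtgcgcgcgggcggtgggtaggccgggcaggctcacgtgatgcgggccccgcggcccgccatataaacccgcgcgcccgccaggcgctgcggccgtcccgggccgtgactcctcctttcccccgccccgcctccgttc
SREBF2, chr22:41832855-41833154, plus strand: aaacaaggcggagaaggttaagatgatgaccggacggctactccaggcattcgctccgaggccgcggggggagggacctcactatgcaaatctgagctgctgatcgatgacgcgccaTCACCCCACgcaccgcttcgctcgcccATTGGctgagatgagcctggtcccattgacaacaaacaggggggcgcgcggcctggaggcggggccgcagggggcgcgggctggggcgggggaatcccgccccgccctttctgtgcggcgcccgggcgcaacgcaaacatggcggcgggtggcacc
In SREBF2, which encodes the SREBP of the cholesterol route, the sterol element read TCACCCCAC at -133 to -125 from the start (the first transcribed base is 0), and an ATTGG stood at -106 to -102. It was the only one among the 28 genes of the set with a window (37 windows, since some genes have several). These are not the same 28 genes as those tested: TM7SF2, CYP51A1 and FADS1 had windows, while FASN, ACAT2 and SQLE had none. The element was in 396 of all 35116 windows, 1.13%. The CCAAT box was in 26 of the 37 windows, 70.3%, against 34.6% of all windows, and 22 of the 28 genes with a window had one. GGGCGG, the Sp1 box, was in 86.5% of the windows of the set and 45.0% of all, and CANNTG, the E-box bound by helix-loop-helix factors, was in 56.8% and 68.7%. Both strands were searched for each motif, and an E-box can overlap the sterol element or the CCAAT box. These are matches of letters, with no measurement of binding.

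Array medians lay at 4.98 to 5.02 (log2) in KHOS and at 5.07 to 5.15 in U-2OS. The interquartile range of all values was 3.24 on the KHOS control array and 3.32 and 3.36 with the vectors, but 3.07 on the U-2OS control array and 2.84 and 2.75 with the vectors. The narrower spread went with a shift of all genes in U-2OS, where the median gene tested was 0.10 lower with a vector than in control. A further quantile normalization, which gives every array the same distribution, turned that to 0.05 higher, and the calls of the set that it changed are named below. Added spike-in transcripts averaged 9.40 to 9.77 in KHOS but 10.50 in control U-2OS cells, 11.05 with miR-null and 11.37 with miR-1. The part of these shifts in the results was not tested. Of 6 osteoblast lineage markers with a probe set, 4 passed the filter. SPARC and COL1A1, matrix proteins of bone, were high in both lines, at 10.07 to 12.07, while COL1A2 and ALPL lay below 5 on every array. RUNX2, the lineage's transcription factor, was at 8.98 to 9.85 in KHOS and at 6.74 in control U-2OS cells, 4.72 with miR-null and 4.23 with miR-1, while SPP1, a bone matrix phosphoprotein, ran the other way there, at 6.57, 8.82 and 8.60, and at 5.36 to 6.13 in KHOS. EPCAM, an epithelial adhesion protein, was at 8.43 to 8.70 in KHOS, against 5.49 to 5.96 in U-2OS. The other epithelial markers read, KRT19 and CDH1, lay below the filter, at 4.28 to 4.66 and 3.95 to 4.45 over both lines. Markers of blood, endothelial, liver and fat cells stayed at or below 6.59. In bulk RNA, fewer cells of a type and less RNA per cell cannot be told apart.

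The vector arrays of U-2OS lay below control for most genes of both routes, with the lowest values in fatty acid synthesis, though 19 of the 28 genes did not pass there. The 28 genes had a median of -0.54 in U-2OS (mean of the 2 vector arrays minus control, log2), and 25 of them lay below 0. In KHOS the median was -0.15, with 20 below 0. Over all genes tested the medians were -0.10 and -0.01, and over the 5968 genes with a mean level of at least 8 they were -0.21 and 0.00, while the 21 genes of the set at that level had -0.56 and -0.15. After quantile normalization the set's medians were -0.31 in U-2OS and -0.19 in KHOS, beside 0.05 and -0.05 for all genes, and 22 and 21 genes of the set lay below 0.

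In U-2OS, 9 of the 28 genes passed as lower in a fit with a term for each line's change (limma, adjusted p below 0.05), and 0 passed as higher. The 9 were ACACA, SCD, ELOVL6, SCD5, FASN, ACAT2, MSMO1, SCAP and SQLE. Of all genes tested, 11.7% passed as lower and 3.22% as higher. In KHOS 1 gene passed as lower, SCD5, against 0.572% of all genes, and 0 as higher, against 3.44%; at an unadjusted p below 0.05 there were 2 genes in KHOS and 18 in U-2OS, against 18.3% and 33.3% of all genes. Each line had 1 control array, and the error came from the spread between the vector arrays within each line. The count in U-2OS moved to 4 (ACACA, ELOVL6, SCD and SCD5) without either vector array of KHOS, where 1.92% of all genes passed as lower. It moved to 12 without its own miR-null array (18.4% of all genes) and to 7 without its own miR-1 array (8.84%). After quantile normalization ACACA, ELOVL6 and SCD5 passed in U-2OS and no gene of the set in KHOS. The split of all genes in U-2OS then went from 417 higher and 1511 lower to 482 higher and 513 lower, so the direction of the bulk of calls there depends on the scaling.

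**Figure D1:**
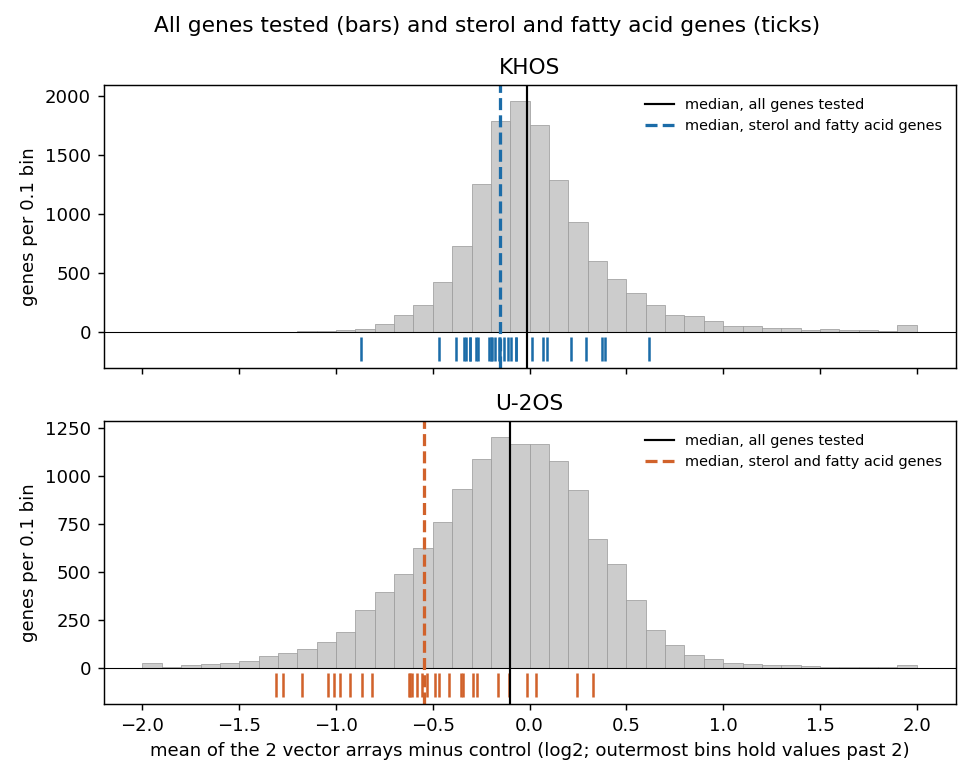
Histograms of the log2 difference between the mean of the 2 vector arrays and the control array for the 12948 genes tested, in bins of 0.1, with KHOS above and U-2OS below; ticks mark the 28 sterol and fatty acid genes. The dashed line, the median of the 28 genes, lies at -0.15 in KHOS and at -0.54 in U-2OS, and the solid line, the median of all genes, at -0.01 and -0.10.

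A count by fold needs no error model. In U-2OS both vector arrays lay at least 1.2-fold (0.263 in log2) below control for 20 of the 28 genes, against 28.0% of all genes tested, and above it for 0, against 12.9%. In KHOS they lay below control for 4 genes, against 10.7%, and above it for 3, against 15.8%. ACLY, FDPS, ACACA and SCD5 were the 4 genes below control in both lines, against 6.21% of all genes. HMGCS1, INSIG1 and SC5D were the 3 above control in KHOS. The 20 genes of U-2OS were 13 after quantile normalization (17.2% of all genes), 14 when the probe sets of a gene were averaged (24.1%) and 16 of 21 at a mean level of at least 8 (36.3%).

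**Figure D2:**
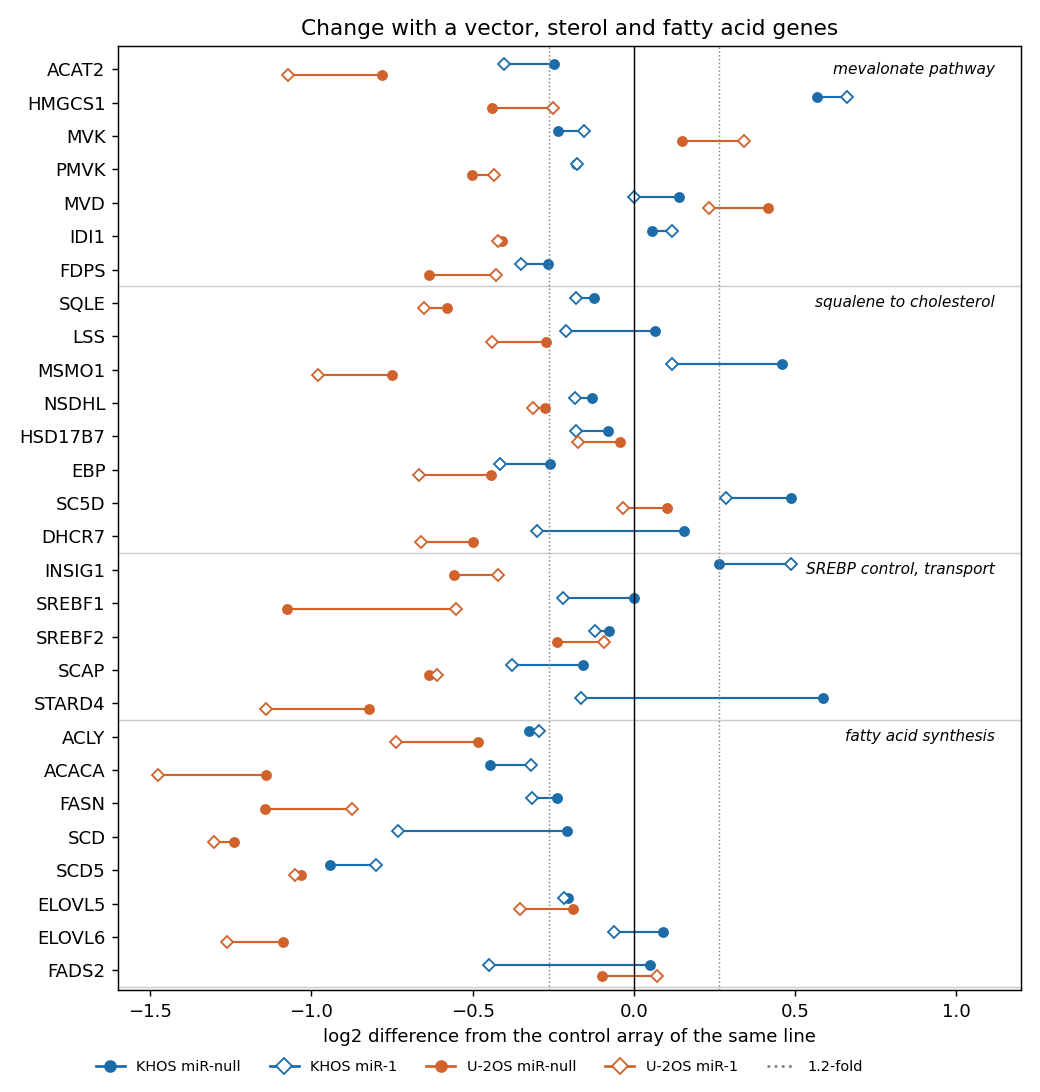
Log2 difference of each vector array from the control array of its line, for the 28 genes by role. Filled circles are miR-null and open diamonds miR-1, blue is KHOS and orange U-2OS, and dotted lines mark 1.2-fold; 20 genes have both U-2OS points left of the lower dotted line, and 4 have both KHOS points there.

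Fatty acid synthesis showed the lowest values. In U-2OS 5 of its 8 tested genes passed as lower, but 3 (ACACA, ELOVL6 and SCD5) after quantile normalization and 1 (ELOVL6) when probe sets were averaged. Of all genes, 11.7%, 3.96% and 11.4% passed as lower under these settings. The median of the 8 was -1.03, and all 8 lay below 0, FADS2 turning to 0.20 after quantile normalization. In KHOS 1 of 8 passed as lower, against 0.572% of all genes. The median there was -0.29 and 7 lay below 0, or 8 after quantile normalization with ELOVL6 at -0.04.

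SCD5, a stearoyl-CoA desaturase, was the 1 gene of the set that passed in both lines. Its log2 level was 7.47 on the KHOS control array and 6.53 and 6.67 with miR-null and miR-1, and 7.65, 6.62 and 6.60 in U-2OS. Control lay above every vector array in both lines, by 1.83-fold in KHOS and 2.06-fold in U-2OS. Over both lines it fell by 0.96 ± 0.13 (SE, 4 vector and 2 control arrays, adjusted p = 0.0374). It was also the only gene of the set that passed in that joint fit, where 0.124% of all genes passed as lower and 0.355% as higher. The adjusted p was 0.087 to 0.183 when 1 of the 4 vector arrays was left out, so the call needs each of them. Within KHOS alone SCD5 did not pass without either vector array of that line, nor after quantile normalization (adjusted p = 0.0700). The fall was read by 1 probe set. Another probe set of SCD5 past the filter, much dimmer at 4.97 to 5.94, was higher with the vectors by 0.31 in KHOS and 0.21 in U-2OS, and averaging a gene's probe sets gave -0.20 (adjusted p = 0.326).

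SCD, the main stearoyl-CoA desaturase, which makes oleate from stearate, stood at 11.48 in U-2OS control and at 10.24 and 10.18 with miR-null and miR-1. It fell there by 1.27 ± 0.23 (SE, adjusted p = 0.0118), 2.41-fold, with an adjusted p of 0.0534 after quantile normalization. In KHOS it read 11.56, 11.35 and 10.82, lower with miR-1 than with miR-null, and its change of -0.47 did not pass. The mean of the 2 vector arrays lay below control for all 4 probe sets of SCD, by 0.18 to 1.27 in U-2OS and by 0.00 to 0.47 in KHOS. On the dimmer probe sets the KHOS miR-null array lay above control, at 9.36, 7.79 and 7.82 against 9.14, 7.60 and 7.53.

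ACACA, the acetyl-CoA carboxylase that commits carbon to fatty acids, had the largest fall of the set in U-2OS. It read 8.41 in control, 7.27 with miR-null and 6.93 with miR-1, and fell by 1.31 ± 0.19 (SE, adjusted p = 0.00666), 2.48-fold. In KHOS it read 9.25, 8.80 and 8.93, also below control on both arrays, with a change of -0.38 that did not pass. Its other probe set past the filter, at 6.68 to 7.47, gave 0.49 in U-2OS and 0.07 in KHOS, so the probe sets disagree in direction and the fall belongs to the brighter one.

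FASN, the fatty acid synthase, read 8.57, 7.43 and 7.70 in U-2OS, and fell by 1.01 ± 0.18 (SE, adjusted p = 0.0123, or 0.0662 after quantile normalization). In KHOS it read 8.15, 7.92 and 7.84. A dim probe set of FASN below the filter, at 4.83 to 5.20, gave 0.32 in U-2OS and 0.22 in KHOS. ELOVL6, which lengthens palmitate to stearate, read 9.12, 8.03 and 7.86 in U-2OS, and fell by 1.18 ± 0.17 (SE, adjusted p = 0.00696), whereas its KHOS levels of 9.28, 9.37 and 9.21 straddled control. A further probe set of ELOVL6 past the filter gave -1.47 in U-2OS and -0.16 in KHOS. ACLY, which makes cytosolic acetyl-CoA from citrate, read 11.52, 11.20 and 11.23 in KHOS, against 11.53, 11.05 and 10.79 in U-2OS, below control on every vector array by values that did not pass (-0.31 and -0.61). ELOVL5, an elongase of polyunsaturated fatty acids, differed by -0.21 and -0.27, and FADS2, the delta-6 desaturase, by -0.20 and -0.01, and neither passed.

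**Figure D3:**
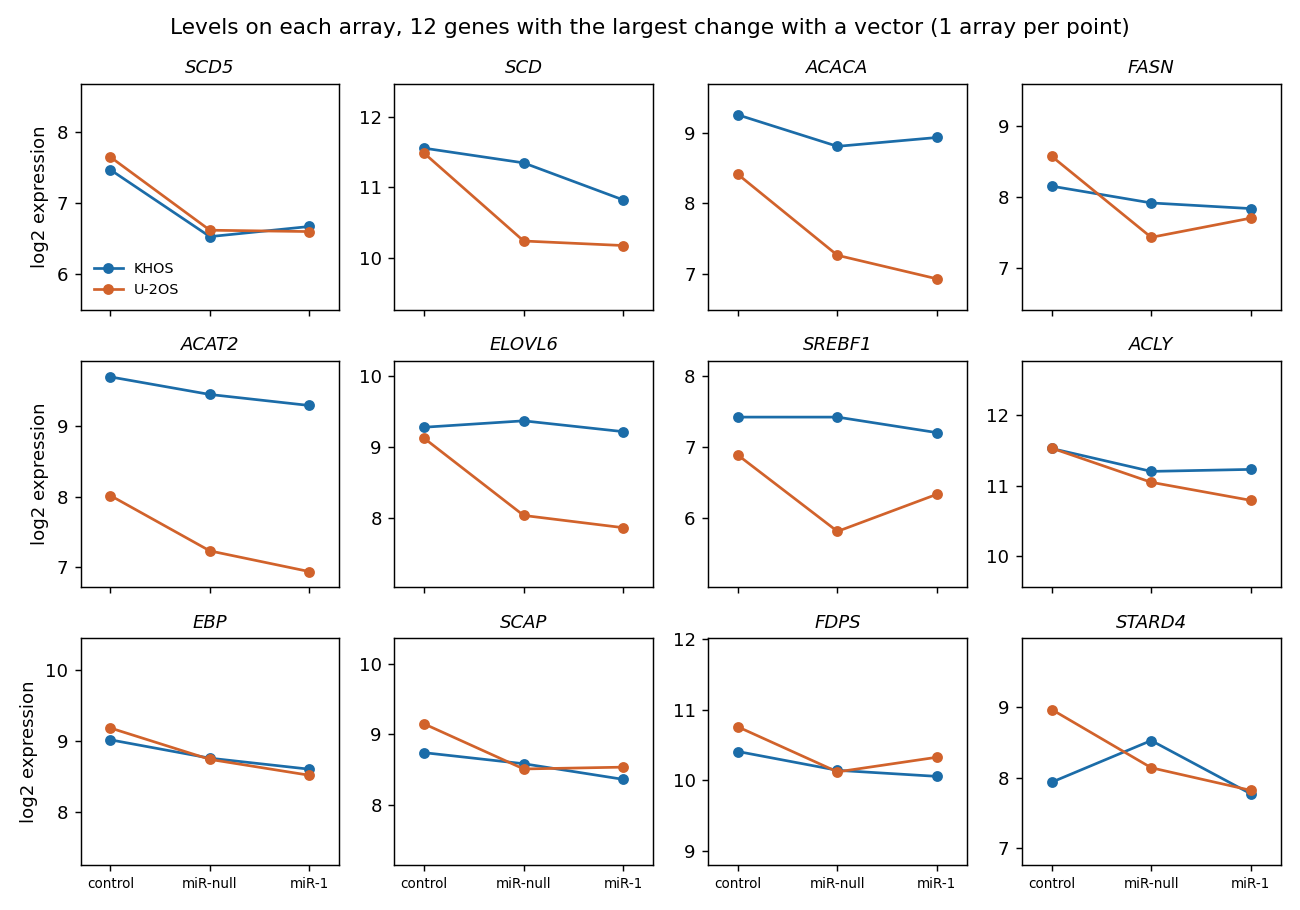
Log2 level on each of the 6 arrays (1 array per point, so no error bars) for the 12 genes with the largest fitted change between vector and control arrays, KHOS in blue and U-2OS in orange; every panel spans 3.2 log2 units. SCD5 drops in both lines to between 6.53 and 6.67, ELOVL6 goes from 9.12 to 8.03 and 7.86 in U-2OS, and STARD4 stands at 8.52 with miR-null in KHOS.

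In the mevalonate pathway 1 of 7 genes passed as lower in U-2OS, against 11.7% of all genes, and the median was -0.41. ACAT2, which joins acetyl-CoA units at the start of the pathway, read 8.02, 7.23 and 6.94 there, and fell by 0.93 ± 0.19 (SE, adjusted p = 0.0182, or 0.0642 after quantile normalization). In KHOS it read 9.69, 9.44 and 9.29, again lowest with miR-1. FDPS, the farnesyl diphosphate synthase, read 10.41, 10.14 and 10.06 in KHOS, against 10.76, 10.12 and 10.33 in U-2OS, with changes of -0.31 and -0.53 that did not pass. HMGCS1, which makes HMG-CoA, lay on opposite sides of control in the 2 lines: 7.69, 8.26 and 8.35 in KHOS, against 9.23, 8.79 and 8.98 in U-2OS. Neither the KHOS difference of 0.62 (adjusted p = 0.0967) nor the U-2OS one of -0.35 passed, and a dimmer probe set of HMGCS1 gave 0.51 and 0.21. The KHOS difference did pass when only genes above the 75th percentile of level were tested, where 552 of 7883 genes passed as higher. IDI1, the isopentenyl diphosphate isomerase, differed by 0.09 in KHOS, against -0.41 in U-2OS, and PMVK, phosphomevalonate kinase, by -0.18 and -0.47. MVK, mevalonate kinase, and MVD, which decarboxylates mevalonate diphosphate, were the genes above control on both U-2OS vector arrays, by means of 0.25 and 0.33. MVD sat at the floor, reading 4.97 to 5.11 in KHOS and 5.02, 5.44 and 5.25 in U-2OS, and reached the filter only through its U-2OS vector arrays, so nothing is drawn from it. None of these 4 genes passed in either line.

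From squalene to cholesterol, 2 of 8 genes passed as lower in U-2OS, against 11.7% of all genes. The median there was -0.46, and 7 lay below 0, or 6 after quantile normalization with HSD17B7 at 0.13. MSMO1, the sterol C4-methyl oxidase, read 9.99, 9.24 and 9.01 there, and fell by 0.86 ± 0.20 (SE, adjusted p = 0.0276). In KHOS it read 9.91, 10.37 and 10.03, above control on both vector arrays. SQLE, squalene epoxidase, read 10.78, 10.20 and 10.13 in U-2OS, and fell by 0.62 ± 0.16 (SE, adjusted p = 0.0399). In KHOS it read 10.48, 10.35 and 10.30. Neither gene passed after quantile normalization, with adjusted p of 0.0938 and 0.117. EBP, the sterol isomerase, read 9.02, 8.76 and 8.60 in KHOS, against 9.18, 8.74 and 8.52 in U-2OS, with the control array highest in each line and changes of -0.34 and -0.56 that did not pass. The remaining U-2OS values were -0.58 for DHCR7, the final reductase of cholesterol synthesis, -0.36 for LSS, lanosterol synthase, -0.29 for NSDHL, a sterol dehydrogenase, -0.11 for HSD17B7, a sterol ketone reductase, and 0.04 for SC5D, a sterol desaturase. In KHOS SC5D was 0.39 higher, reading 9.28 in control and 9.77 and 9.57 with the vectors, and did not pass.

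Among the genes that control SREBP and move sterols, 1 of 5 passed as lower in U-2OS, against 11.7% of all genes, and the median was -0.62. SCAP, the escort of SREBP out of the endoplasmic reticulum, read 9.15, 8.51 and 8.54 and fell by 0.62 ± 0.17 (SE, adjusted p = 0.0465, or 0.184 after quantile normalization). In KHOS SCAP read 8.74, 8.58 and 8.36. SREBF1, whose SREBP serves mainly the fatty acid route, read 6.89, 5.81 and 6.34 in U-2OS (-0.81, adjusted p = 0.0511) and 7.43, 7.43 and 7.21 in KHOS. SREBF2 read 6.91, 6.67 and 6.82 in U-2OS and 6.76, 6.69 and 6.65 in KHOS, differences of -0.16 and -0.10 that did not pass. INSIG1, which holds SCAP back and is itself a target of SREBP, read 9.37, 9.64 and 9.86 in KHOS, against 9.00, 8.44 and 8.58 in U-2OS, so its vector arrays lay above control in KHOS and below it in U-2OS. STARD4, a carrier of cholesterol between membranes, read 8.96, 8.14 and 7.82 in U-2OS (-0.98, adjusted p = 0.0566) and 7.93, 8.52 and 7.77 in KHOS, where the vectors lay on either side of control.

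Whether the change differed between the lines was tested directly, as an interaction. No gene of the set passed in limma, while 8 had an unadjusted p below 0.05, against 2.29% and 22.4% of all genes tested. The median difference (KHOS minus U-2OS) was 0.35 for the set and 0.14 for all genes, and after quantile normalization 0.10 and -0.06. ELOVL6 came nearest, at 1.19 ± 0.25 (SE, adjusted p = 0.0505). STARD4 had 1.19 ± 0.41 (SE, adjusted p = 0.148), MSMO1 1.15 ± 0.29 (SE, adjusted p = 0.0739) and HMGCS1 0.96 ± 0.24 (SE, adjusted p = 0.0773). When only genes above the 75th percentile of level were tested, ELOVL6, HMGCS1 and MSMO1 passed, among 554 of 7883 genes that did. Leaving out the U-2OS miR-null array leaves 1 vector array in that line. The median difference was then 0.42 for the set and 0.16 for all genes. For SCD5 the difference was 0.17, with a 95% interval of -0.37 to 0.71. The larger changes of U-2OS are thus values that did not pass this test.

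The study's own comparison, miR-1 against miR-null, gave no gene of the set that passed. In limma 0 of the 28 did, and 0 had an unadjusted p below 0.05. Of all genes, 0.0% passed and 0.602% had an unadjusted p below 0.05. The median was -0.10 for the set and -0.04 for all genes. The largest differences were those of STARD4 (-0.54 ± 0.33, SE), DHCR7 (-0.31 ± 0.21, SE), SCD (-0.29 ± 0.26, SE) and MSMO1 (-0.29 ± 0.31, SE). STARD4 was lower with miR-1 in both lines, as the levels above show, and DHCR7 read 7.98 in control, 8.13 with miR-null and 7.68 with miR-1 in KHOS, against 8.70, 8.20 and 8.04 in U-2OS. For SCD most of the difference lay in KHOS, where 11.35 became 10.82, against 10.24 and 10.18 in U-2OS. All 8 genes from squalene to cholesterol were lower with miR-1 than with miR-null in both lines, as were 14 of the 28 genes of the set and 33.8% of all genes tested. After quantile normalization 7 of the 8 were, against 25.9% of all genes. The other roles were mixed. Among the 7 mevalonate genes 2 were lower and 3 higher in both lines. The SREBP genes had 1 of 5 each way, and fatty acid synthesis had 3 of 8 lower and 0 higher. None of the 28 intervals of this contrast excluded 0, and they reached from -1.33 for STARD4 up to 0.81 for SREBF1.

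With the empty vector alone no gene passed either. For miR-null minus control 0 genes of the set passed in limma and 5 had an unadjusted p below 0.05, where 0.0% and 9.75% of all genes did, and the set's median was -0.20. Within U-2OS the median difference from control was -0.50 with miR-null and -0.50 with miR-1. In KHOS these were -0.10 and -0.20. Both contrasts share the control arrays, so the values are given side by side only.

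Some of these genes also differed in level between the lines. In the fit over 3 treatments 7 of 28 genes were higher in KHOS and 3 lower, while 30.3% of all genes were higher and 24.5% lower, so the share that differed, 10 of 28, was not above that of all genes. IDI1 and ACAT2 led, higher in KHOS by 2.09 ± 0.17 (SE, adjusted p = 1.84e-04) and 2.08 ± 0.18 (SE, adjusted p = 2.43e-04). IDI1 read 10.62, 10.68 and 10.74 in KHOS, against 8.87, 8.47 and 8.45 in U-2OS. ACACA (1.46), SREBF1 (1.01), INSIG1 (0.95), ELOVL6 (0.95) and SC5D (0.58) were the others higher in KHOS. For ELOVL6 the gap was 0.16 between the control arrays and 1.34 and 1.36 between the vector arrays, and for INSIG1 0.38, 1.20 and 1.28, so the gap was wider between the vector arrays than between the controls. The genes higher in U-2OS were HMGCS1 (8.79 to 9.23 against 7.69 to 8.35 in KHOS), PMVK (8.04 to 8.54 against 7.41 to 7.59) and ELOVL5 (12.34 to 12.69 against 11.85 to 12.07).

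After quantile normalization 5 genes were higher in KHOS and 9 lower, as the split of all genes went from 3928 higher and 3172 lower to 3029 and 4307. IDI1, ACAT2, ACACA, SREBF1 and INSIG1 were still higher and HMGCS1, PMVK and ELOVL5 still lower. SC5D and ELOVL6 no longer passed. Newly lower in KHOS were MVK (-0.82), DHCR7 (-0.76), SCAP (-0.54), LSS (-0.51), FDPS (-0.47) and EBP (-0.38). Leaving out either miR-null array cut the 10 genes to 6, namely ACACA, ACAT2, HMGCS1, IDI1, INSIG1 and PMVK. The count over all genes tested fell from 7100 to 4455. The IDI1 probe set can share signal with related transcripts, as can that of HSD17B7, since both are of the array's cross-hybridising kind.

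**Figure D4:**
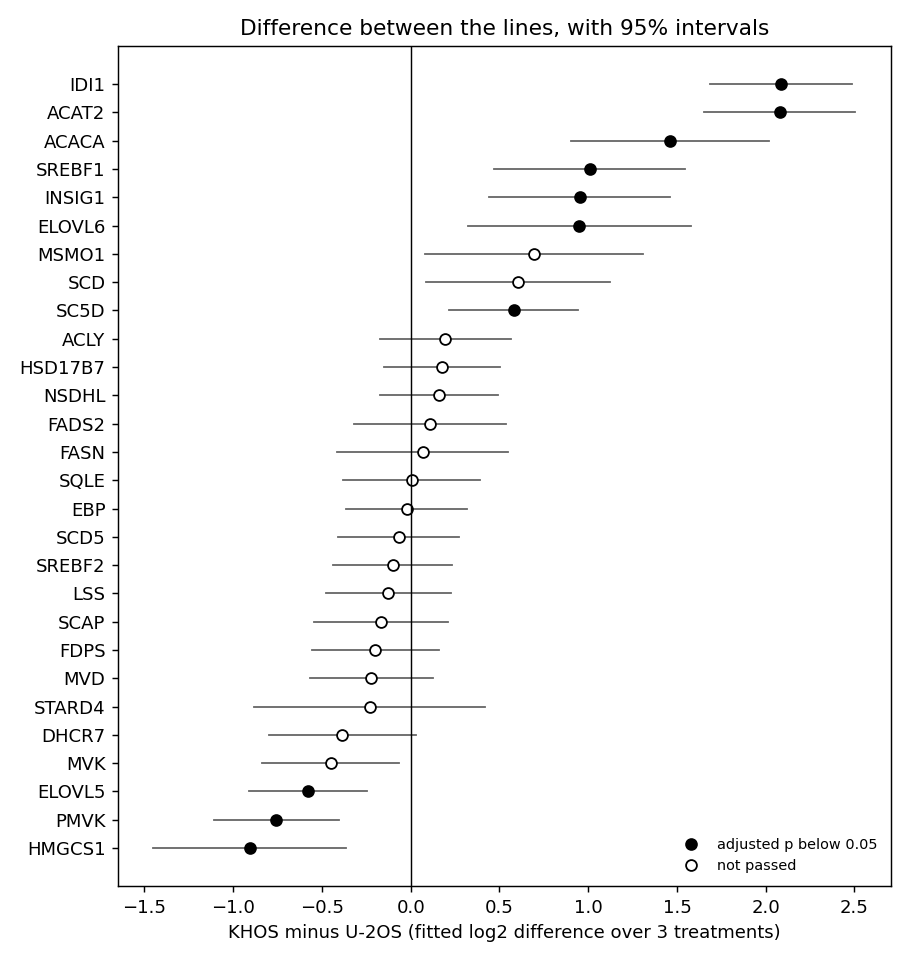
Fitted log2 difference between KHOS and U-2OS over the 3 treatments for each of the 28 genes, with 95% intervals; filled points passed at an adjusted p below 0.05. IDI1 (2.09) and ACAT2 (2.08) stand at the top, and ELOVL5, PMVK and HMGCS1 (-0.58, -0.76 and -0.91) at the bottom.

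Genes next to this pathway were read for comparison. Of 23 listed genes of SREBP processing and further lipid synthesis 21 were tested, and in U-2OS 4 passed as lower (11.7% of all genes did) and 0 as higher, with a median of -0.40. INSIG2, the second INSIG protein, read 8.09, 7.32 and 6.57 there (-1.14, adjusted p = 0.0308). GPAM, which starts glycerolipid synthesis, read 7.82, 6.98 and 6.87 (-0.90, adjusted p = 0.0141), HACD2, a dehydratase of fatty acid elongation, changed by -0.83 and TMEM97, a sterol-responsive membrane protein, by -0.68. In KHOS 1 of the 21 passed as higher, as 3.44% of all genes did: NPC1, which carries cholesterol out of lysosomes, at 9.57 in control and 10.39 and 10.36 with the vectors (0.80, adjusted p = 0.0327). It was 0.47 higher in U-2OS too, which did not pass. After quantile normalization GPAM still passed in U-2OS (adjusted p = 0.0471), INSIG2, HACD2 and TMEM97 did not, and NPC1 passed as higher in U-2OS (0.65, adjusted p = 0.0481) but not in KHOS (0.79, adjusted p = 0.0727). In the joint fit of both lines 0 of the 21 passed.

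Of 7 genes of sterol excess and export, which answer to liver X receptors or handle surplus sterol, 5 passed the level filter. CH25H, which makes 25-hydroxycholesterol, read 5.45 in control KHOS cells and 7.38 and 7.39 with the vectors, and 4.14 to 4.29 in U-2OS, below the filter level. It reached the filter only through the KHOS vector arrays, where it was high, so its values are given as a description with no test. MYLIP, a ubiquitin ligase of lipoprotein receptors, read 7.73, 8.46 and 9.43 in KHOS (1.22, adjusted p = 0.0898). ABCA1, a cholesterol exporter, read 6.31, 6.56 and 6.75 in KHOS, a difference of 0.34 that did not pass. In U-2OS ABCA1 lay below the filter level, at 3.66 to 3.99. It reached the filter only through KHOS, and nothing is drawn from its U-2OS value of -0.13. Leaving CH25H aside, no gene of this list passed in either line.

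How far probe sets of 1 gene agreed limits the reading of single genes. Of the 28 genes, 15 had more than 1 probe set past the filter, and all of a gene's probe sets had the same sign of change in 9 of the 15 in U-2OS and 7 in KHOS. SCD, EBP, ACLY, DHCR7, INSIG1 and NSDHL had the same sign throughout within each line. ELOVL5 did not, since a dimmer probe set was higher with the vectors by 0.69 in KHOS, and 0.76 in U-2OS, against -0.21 and -0.27 for the bright one. When probe sets were averaged, 7 genes passed as lower in U-2OS (ACAT2, ELOVL6, FDPS, MSMO1, SCAP, SQLE and STARD4), against 11.4% of all genes. ACACA, SCD, SCD5 and FASN did not.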

How the data were processed

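The authors turned scans of Affymetrix U133 Plus 2.0 arrays into log2 expression values with RMA in Qlucore 3.2, per the labels' design text, and RMA also stands in the submitters' processing notes. These deposited log2 values, none missing, lay between 2.83 and 14.90 and were taken as they are. Depth has no counterpart here, and the number of arrays (6) limits the precision.

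A probe annotation gave 41091 probe sets 1 symbol, 1801 several and 11721 none, and 62 control probe sets were left out. Of those with 1 symbol, 41037 matched the RefSeq gene table of GRCh38.p14. Each of 19775 genes took its probe set with the highest mean, and the 12948 with a mean of at least 5.11 were tested. Fits used limma 3.58.1 in R 4.3.3 (lmFit, eBayes) with Benjamini-Hochberg adjustment over all genes tested, at 0.05. The joint vector fit had line as an additive term (3 residual degrees of freedom), the 3-treatment fit and the fit by line and vector had 2. The contrasts within 1 line were added after seeing the data. The script was tested on simulated data with known changes.

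The members and lists were chosen with earlier results of these data known. All members are named. Values on every array are given for the 12 with the largest vector change, the 6 with the largest difference between lines, the 4 with the largest line difference of the change and the 4 with the largest miR-1 difference. SC5D, SQLE and genes outside the set were added after their values were seen. Alternatives were quantile normalization, other level filters, averaged or separate probe sets, a prior variance that follows the mean, the methods' Mann-Whitney test, a 1.5-fold limit and leaving out each array.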

Additional observations from a re-analysis of the deposited data

Results flagged for a closer look

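In 5 genes both vector arrays lay on one side of control in KHOS and on the other in U-2OS, on the brightest probe set of each. The difference between the lines (KHOS minus U-2OS, limma interaction) was 0.96 ± 0.24 (SE, adjusted p = 0.0773) for HMGCS1 and 1.15 ± 0.29 (SE, adjusted p = 0.0739) for MSMO1. It was 0.86 ± 0.25 (SE, adjusted p = 0.105) for INSIG1 and 0.50 ± 0.23 (SE, adjusted p = 0.239) for IDI1, all higher than control in KHOS and lower in U-2OS. MVK ran the other way, at -0.44 ± 0.24 (SE, adjusted p = 0.320). None of the 5 passed. Probe sets past the filter ran from -0.15 to 0.09 in KHOS and from -0.425 to 0.36 in U-2OS for IDI1. They ran from -0.19 to 0.16 in KHOS for MVK, and from -0.35 to 0.21 in U-2OS for HMGCS1, so the sides were not shared by all probe sets. INSIG1 kept 1 sign within each line, and MSMO1 had 1 probe set.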

How the results depend on the processing

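Each line and treatment has 1 array of pooled RNA, so a left-out array leaves its group empty or rests on the other line, and no precision beyond that of 6 arrays is to be had. No paired analysis was possible because every group has 1 array, with no shared replicate numbers beyond it, and the line was already a term of the fits.

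In the joint fit of vector against control 1 gene of the set passed. It became 0 with a 75th percentile filter or averaged probe sets, where 388 of 7883 and 216 of 11574 genes passed. The 75th percentile filter left 23 genes of the set and removed SCD5 (mean 6.92), so its call was not tested there. The count became 2 with the prior variance fitted to the mean, where 588 of 12948 passed. Without 1 array the set's median ran from -0.54 to -0.15. Genes of the set then passed only without a control array, where 1 line alone gives the contrast. The methods' exact Mann-Whitney test called 0, since 4 against 2 arrays cannot go below p = 0.133. For miR-null against control, leaving out 1 array gave 0 to 8 genes (8 without the KHOS control, 1 without the U-2OS control) and medians of -0.52 to -0.13. For miR-1 against miR-null the median was -0.059 after quantile normalization, -0.075 with averaged probe sets and -0.17 to 0.043 without 1 array. KHOS against U-2OS had a median of -0.25 after quantile normalization and -0.05 to 0.16 without 1 array. It had 6 to 13 genes without 1 array (6 without either miR-null array), where 4455 to 8763 of all 12948 genes passed. The line difference had medians of 0.10 (quantile), 0.46 (75th percentile filter), 0.19 (averaged probe sets) and 0.29 to 0.46 without 1 array. It had 3 genes under the 75th percentile filter, where 554 of 7883 genes passed. With the prior that follows the mean it also had 3, where 863 of 12948 passed.

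Within KHOS the count was 0 after quantile normalization, where 0.88% of all genes passed as higher and 0.077% as lower. It was also 0 after averaging, where 4.10% and 1.03% did. With the 75th percentile filter, which removed SCD5, it was 1: HMGCS1 passed as higher in KHOS, as 552 of 7883 genes did. Without 1 array the set's median there was -0.20 to -0.10. Within U-2OS it was 3 after quantile normalization, 14 with the prior that follows the mean and 4 to 12 without 1 array, with medians of -0.54 to -0.50. Of all genes, 3.96% passed as lower in U-2OS after quantile normalization and 17.4% with that prior, against 11.7% in the main fit. The U-2OS counts without 1 array are given above beside their shares of all genes. At 1.5-fold 0 genes were above and 1 below control in KHOS (5.65% and 1.51% of all genes), and 9 were below in U-2OS (10.5%). After quantile normalization 1 was above and 7 below in KHOS (13.1% and 13.2% of all genes), and 1 above and 13 below in U-2OS (21.5% and 17.2%). With averaged probe sets 1 was above and 1 below in KHOS (13.6% and 8.39% of all genes), and 1 above in U-2OS (10.2%). With 1 vector array alone 3 to 5 were above in KHOS (20.8% to 21.7% of all genes) and 4 to 11 below (14.2% to 21.2%). In U-2OS 1 was above (18.9% to 20.8%).

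Without 1 array the joint vector change ran from -1.18 to 0.014 for ELOVL6 and from -0.98 to 0.21 for STARD4, positive without the U-2OS control. The miR-1 difference ran from -0.67 to 0.079 for SCD and from -0.62 to 0.043 for MSMO1, positive without KHOS miR-null. Quantile normalization turned the sign of 1 of the 28 genes in the joint vector fit, 3 for miR-null against control, 0 for miR-1 against miR-null, 5 between the lines, 6 in the line difference, 1 within KHOS and 3 within U-2OS. Of 166 counts and medians compared 112 stayed within the limits set for them and 54 moved past them. The limit was a fixed ratio for counts. For medians it was the standard deviation of the set's own medians over lines or treatments. Some counts could not move, such as that of the Mann-Whitney test for miR-1, whose p cannot go below 0.133.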
